A study of Homo sapiens with 6 samples.

Results

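The genes described here are 36 regulators and transcriptional targets of p53, taken by name from the deposited expression table. Each of the 36 symbols was found on 1 locus of the 24294 in the table, none of them shared with another symbol. All 36 had a mean of at least 1 FPKM, the minimum for testing. By its name FPKM is fragments scaled to the length of the transcript and to the mapped fragments of the library. No source used here says how this table was scaled. The genes were measured by RNA sequencing in MCF12A, a human mammary epithelial line that is immortalized and known as non-tumorigenic, although the labels list it as a cancer line. The 2 groups were cells with a stable empty vector (EV, 3 libraries) and cells stably over-expressing the microRNA miR-424 (3 libraries), all harvested after 48 hours without a further agent named in the labels. The promoter of the construct, and whether each stable line was 1 clone or a pool, are not stated in the labels, and the libraries of a group are replicate cultures of the same cells, so p-values measure the spread between those cultures.

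p53 is a transcription factor that is stabilized when DNA is damaged or growth signals are abnormal. MDM2 and MDM4 hold it in check, and many of its targets either feed back on it or stop the cell cycle, repair DNA, alter metabolism or promote cell death. In cultured epithelial cells many of these targets are transcribed at a basal level without added damage. MicroRNAs act by a separate route, pairing through their seed (bases 2 to 8) with messenger RNAs, most often in the 3' untranslated region (3' UTR).

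The sequences below, from RefSeq (GRCh38.p14), are shown because the seed defines which messenger RNAs miR-424 can pair with. Capitals mark the seed, which miR-424-5p shares with miR-16-5p. The seed of miR-503-5p, encoded beside miR-424, ends in a different base.
hsa-miR-424-5p: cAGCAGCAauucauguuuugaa
hsa-miR-16-5p: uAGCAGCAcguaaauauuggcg
hsa-miR-503-5p: uAGCAGCGggaacaguucugcag

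The longest 3' UTR of each locus (GENCODE 29, GRCh38) was searched for the 7 bases that pair with the miR-424-5p seed, TGCTGCT on the transcript strand, or for those bases followed by A (TGCTGCTA, an 8-base match counted among the 7-base matches). Matches were found for 12 of the 36 genes (33.3%) and for 23.5% of the 10656 tested loci with a 3' UTR of at least 30 bases. The 3' UTRs of the 36 genes had a median length of 1411 bases, against 1215 for those tested loci. The 8-base match was found for 3 genes (8.3%, against 4.5% of tested loci), the phosphatase gene PPM1D, the sestrin gene SESN1 and the zinc finger gene ZMAT3. These 3 are shown with matches from 4 genes that passed the test described below, and capitals mark the match.
PPM1D (chr17:60664364-60664392, plus strand): tcaataacagatggTGCTGCTAattccca
SESN1 (chr6:108987128-108987156, minus strand): ttagaagatcttggTGCTGCTAttcctgc
ZMAT3 (chr3:179022537-179022565, minus strand): taggttattcatttTGCTGCTAaatataa
BTG2, first match (chr1:203308179-203308207, plus strand): ctttgctttgctagTGCTGCTttgtgtgt
BTG2, second match (chr1:203308310-203308338, plus strand): catgaaagtcttgaTGCTGCTgccatgat
SESN2, first match (chr1:28282182-28282210, plus strand): aaaggcaagggccgTGCTGCTgctgggcg
SESN2, second match, overlapping the first (chr1:28282185-28282213, plus strand): ggcaagggccgtgcTGCTGCTgggcgggg
PERP (chr6:138091999-138092027, minus strand): tgggagaaaatcgcTGCTGCTgagatgga
PHLDA3 (chr1:201465669-201465697, minus strand): tcctgggggtctccTGCTGCTtaggtcct

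Promoters were searched for the other kind of element these genes are known for, the p53 response element. RefSeq windows from 250 bases before to 50 after a start site were available for 28 of the 36 genes. The search was for the p53 consensus of 2 half-sites of 10 bases, on either strand since the consensus is its own reverse complement, with a spacer of at most 1 base, the central C and G of each half-site kept and at most 2 other mismatches. It was met by 4 of the 28 genes (14.3%) and by 0.67% of all 27305 genes with such a window. A match is a description of the letters in this window and does not show binding. The matched stretches are shown with the 4 central bases of each half-site in capitals, with GRCh38.p14 positions, all on the plus strand.
DDB2 (chr11:47214979-47214999): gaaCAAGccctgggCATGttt
MDM2 (chr12:68808923-68808942): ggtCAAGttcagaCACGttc
FAS (chr10:88991309-88991328): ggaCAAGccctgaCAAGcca
AEN (chr15:88621306-88621325): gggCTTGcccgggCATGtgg
The DDB2 stretch had 0 mismatches and the other 3 had 2 each. Of the 4 genes 1, DDB2, passed the test below.

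The sum of all FPKM values lay between 409776 and 424564 in each library, and no source used here gives the number of fragments. The host locus of miR-424 was at 0.989, 1.27 and 1.23 FPKM in the EV libraries and at 107, 106 and 224 FPKM in the miR-424 libraries, in the direction of the label in every library. The keratin gene KRT18 was at 88.1 FPKM in EV cells, but E-cadherin (CDH1), a defining epithelial marker, had means of only 0.0228 (EV) and 0.0183 FPKM (miR-424). Of 10 markers of mammary epithelium 9 had a mean of at least 1 FPKM, of 7 fibroblast markers 2 (DCN and COL1A1), of 6 leukocyte markers 2 (CD68 and LAPTM5) and of 5 endothelial markers 0. Among the epithelial markers the basal keratin gene KRT5 fell from 63.7 ± 2.27 to 40.7 ± 3.22 FPKM and the integrin gene ITGB4 from 14.9 ± 0.40 to 10.4 ± 0.69 FPKM, while KRT14, another basal keratin gene, rose from 2.25 ± 0.24 to 4.36 ± 0.80 FPKM (SD, n = 3; adjusted p from 0.00415 to 0.0165, limma with Benjamini-Hochberg). The summed level of the epithelial list was 342 to 357 FPKM in EV and 306 to 339 in miR-424 libraries, of the fibroblast list 156 to 166 and 164 to 186, of the leukocyte list 84.0 to 87.7 and 78.5 to 86.7, and of the endothelial list 0.318 to 0.341 and 0.250 to 0.306. The defining leukocyte marker PTPRC had means of 0.0464 (EV) and 0.0605 FPKM (miR-424). The part of these differences in the results below was not tested. Replicate 3 of miR-424 stood apart, with a median absolute log2 difference per tested locus of 0.142 and 0.152 from replicates 1 and 2, which differed from each other by 0.0408.

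Of the 36 genes, 11 fell and 0 rose in miR-424 cells (limma on log2(FPKM + 1), Benjamini-Hochberg adjusted p under 0.05 over 11574 loci). That is 30.6% of the genes, where 6.32% of all tested loci fell and 1.24% rose. In bulk RNA, fewer cells that express a gene and less RNA per cell cannot be told apart. The falls were modest, with ratios of mean FPKM (miR-424 over EV) from 0.613 for TP53I11 to 0.855 for TRIAP1. At an unadjusted limma p under 0.05, 19 genes were lower and 0 were higher, against 19.3% and 4.29% of all tested loci. All 3 miR-424 libraries lay below all 3 EV libraries for 22 genes (61.1%) and above them for 2 (5.6%), against 26.9% and 6.59% of all tested loci. The median log2 change was -0.17, with -0.05 for all tested loci, and fold changes on this scale understate those of low genes. The genes were chosen with earlier results of these data known, so these shares are a description.

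**Figure D1:**
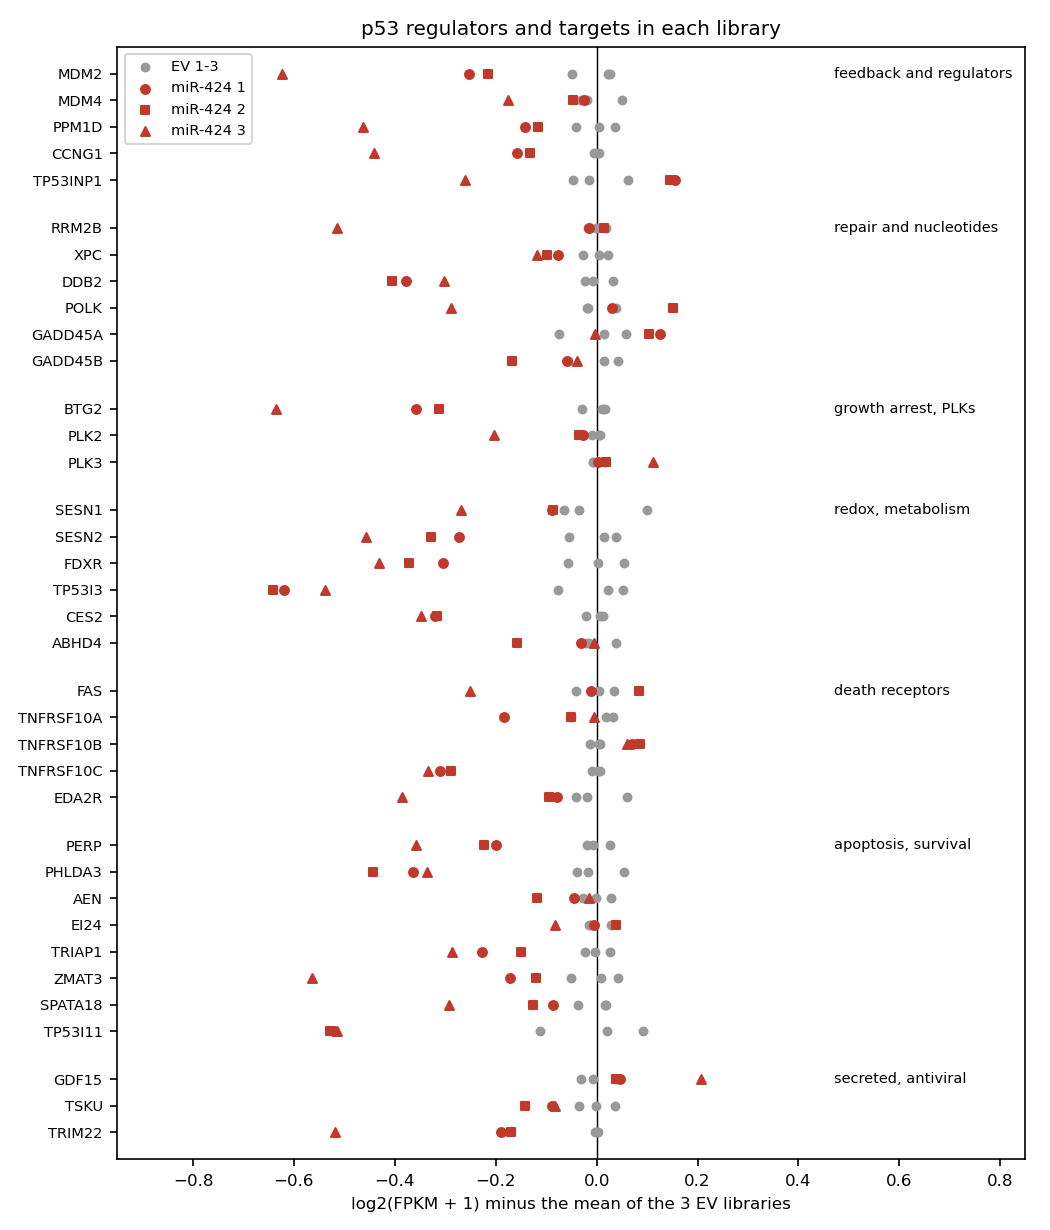
Level of each of the 36 genes in each library, as log2(FPKM + 1) minus the mean of the 3 EV libraries (grey, EV; red circle, square and triangle, miR-424 replicates 1, 2 and 3), grouped by role. For 22 genes all red points lie left of all grey points, and for several, such as MDM2, RRM2B and ZMAT3, the triangle of replicate 3 lies far to the left of the other two.

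With median-of-ratios scaling between libraries the count was again 11 falls and 0 rises, and they were the same 11 genes, against 4.28% falls and 2.66% rises among all tested loci. Without miR-424 replicate 3, 17 genes fell and 2 rose, against 22.2% and 14.9% of all tested loci, and all 11 were among the falls. Without EV replicate 1, 2 or 3, the falls numbered 2, 1 and 2, against 0.665%, 0.683% and 0.726% of all tested loci. Without miR-424 replicate 1 or 2 they numbered 8 and 9, against 2.42% and 3.15%. The call of TP53I3 held in all 17 alternative settings that were run and that of TP53I11 in all but the fit without EV replicate 2 and the fit with a minimum of 5 FPKM, which it did not reach. DDB2, FDXR, CES2, TNFRSF10C and PHLDA3 lost the call only when an EV library was left out, whichever of the 3 it was, with adjusted p up to 0.0703 (limma, Benjamini-Hochberg).

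**Figure D2:**
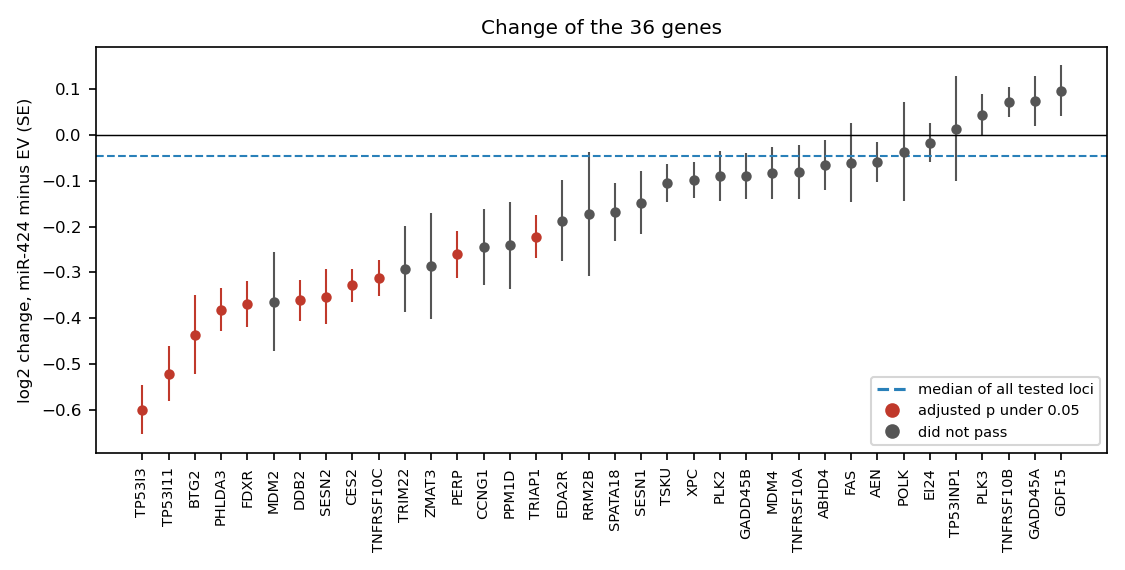
Log2 change (miR-424 minus EV, log2(FPKM + 1) scale) of the 36 genes with its SE (n = 3 libraries per group), ordered by size, with genes past the adjusted p threshold in red and the median of all tested loci as a dashed line. The 11 genes in red run from -0.60 for TP53I3 to -0.22 for TRIAP1, while MDM2, TRIM22 and ZMAT3 lie in the same range with wider errors and did not pass.

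The genes that regulate p53 or feed back on it did not pass the test. For 3 of 5 every miR-424 library lay below every EV library, as for 26.9% of all tested loci. MDM2 (chromosome 12, 69201971 to 69239320, hg19), which encodes the ubiquitin ligase that marks p53 for degradation and is itself a p53 target, read 38.9, 40.9 and 41.0 FPKM in the EV libraries and 33.7, 34.6 and 25.8 FPKM in the miR-424 libraries. The groups did not overlap, and replicate 3 was lower than the other miR-424 libraries by more than those differed from EV. The log2 change was -0.36 ± 0.11 (SE; adjusted p = 0.0960 by limma with the Benjamini-Hochberg method). Without miR-424 replicate 3 it was -0.23 with an adjusted p of 0.00157, and with a trend on GC content removed from each library it was -0.38 with an adjusted p of 0.0279, both by limma with Benjamini-Hochberg adjustment. The share of all tested loci that fell was 22.2% without miR-424 replicate 3 and 8.23% with the GC trend removed.

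PPM1D encodes the phosphatase WIP1, which removes phosphate groups from p53 and its activating kinases, and carries the 8-base match shown above. It was at 5.34, 5.01 and 5.204 FPKM in EV and at 4.61, 4.70 and 3.49 FPKM in miR-424 libraries, a pattern like that of MDM2 with a limma Benjamini-Hochberg adjusted p of 0.189. CCNG1, the gene of cyclin G1, read 43.0, 43.1 and 42.7 FPKM and then 38.4, 39.1 and 31.3 FPKM, again without overlap (adjusted p = 0.136, limma with Benjamini-Hochberg). At an unadjusted limma p under 0.05 MDM2, PPM1D and CCNG1 were lower, as were 19.3% of all tested loci. Without miR-424 replicate 3 both PPM1D and CCNG1 passed (adjusted p = 0.0334 and 0.00228, limma with Benjamini-Hochberg). In that setting 22.2% of all tested loci fell and 14.9% rose. MDM4, whose protein binds p53 and blocks its activity, was low and overlapped between the groups at 2.23 ± 0.10 and 2.05 ± 0.17 FPKM (SD, n = 3). TP53INP1, which encodes a stress-induced nuclear protein, was above EV in replicates 1 and 2 (10.1 and 10.0 FPKM) and below it in replicate 3 (7.31 FPKM), with EV libraries between 8.64 and 9.40 FPKM. It was 1 of the 2 rises without replicate 3 (log2 change 0.15, adjusted p = 0.0208, limma with Benjamini-Hochberg). The other was TNFRSF10B.

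Of 6 genes of DNA repair and nucleotide supply, 1 fell, where 6.32% of all tested loci did. DDB2 (chromosome 11, 47236493 to 47260769), whose protein recognizes ultraviolet lesions in nucleotide excision repair, was at 19.8, 19.2 and 19.0 FPKM in EV and at 14.6, 14.3 and 15.5 FPKM in miR-424 libraries. The 3 miR-424 values were close to each other and well below EV (log2 change -0.36 ± 0.04, SE; adjusted p = 0.00744 by limma with the Benjamini-Hochberg method). XPC, the other lesion sensor of that pathway, differed less, with a mean of 9.70 ± 0.19 FPKM in EV (SD, n = 3) and a ratio of 0.928, without overlap (adjusted p = 0.197, limma with Benjamini-Hochberg). RRM2B, the p53-inducible subunit of ribonucleotide reductase, was 53.7, 54.4 and 52.99 FPKM in EV and 53.1, 54.2 and 37.3 FPKM in miR-424 libraries, so that its lower mean came from replicate 3. POLK, a translesion polymerase gene, had the same shape, with 5.30, 5.85 and 4.05 FPKM in miR-424 libraries against 5.17 ± 0.14 FPKM (SD, n = 3) in EV. GADD45A and GADD45B, stress-inducible genes of DNA repair and arrest, overlapped between the groups, at 34.4 ± 1.64 and 36.3 ± 1.76 FPKM for GADD45A and 36.2 ± 1.31 and 34.0 ± 1.67 FPKM for GADD45B (SD, n = 3).

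Of the antiproliferative gene BTG2 and the polo-like kinase genes PLK2 and PLK3, only BTG2 passed, where 6.32% of all tested loci fell. BTG2 (chromosome 1, 203274664 to 203278729) read 13.5, 13.9 and 13.98 FPKM in EV and 10.5, 10.9 and 8.52 FPKM in miR-424 libraries. Every miR-424 library was lower and replicate 3 lowest, with a log2 change of -0.44 ± 0.09 (SE; adjusted p = 0.0310 by limma with the Benjamini-Hochberg method). The call was lost without EV replicate 1, 2 or 3, without miR-424 replicate 1 and when low loci were not filtered out. With the replicate number as a block in the fit the call was lost too. PLK2 was at 80.1 ± 0.48 and 75.4 ± 5.19 FPKM, without overlap, and PLK3 at 9.39 ± 0.10 and 9.72 ± 0.44 FPKM, with overlap (SD, n = 3).

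Genes of redox balance, metabolism and nutrient sensing held 4 of the 11 falls among 6 genes, where 6.32% of all tested loci fell. TP53I3 (PIG3; chromosome 2, 24300303 to 24308085), which encodes a quinone oxidoreductase, read 7.83, 8.45 and 8.65 FPKM in EV and 5.06, 4.96 and 5.41 FPKM in miR-424 libraries. It had the most negative change of the 36 (log2 change -0.60 ± 0.05, SE; adjusted p = 0.00287 by limma with the Benjamini-Hochberg method), which lay at percentile 0.5 of the changes of all tested loci. FDXR, the reductase that passes electrons to mitochondrial ferredoxins, was at 29.9, 28.8 and 27.7 FPKM in EV and 23.1, 22.0 and 21.1 FPKM in miR-424 libraries. The gap between the groups was wider than the spread within either (adjusted p = 0.0102, limma with Benjamini-Hochberg). CES2, a carboxylesterase gene, read 23.3, 22.8 and 23.2 FPKM and then 18.3, 18.4 and 17.95 FPKM, with tight replicates on both sides (adjusted p = 0.00585, limma with Benjamini-Hochberg).

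The sestrins couple stress to lower mTORC1 activity. SESN2 (chromosome 1, 28585963 to 28609002), with the overlapping seed matches shown above, fell from 7.99, 7.43 and 7.84 FPKM in EV to 6.24, 5.97 and 5.37 FPKM in miR-424 libraries (log2 change -0.35 ± 0.06, SE; adjusted p = 0.0201 by limma with the Benjamini-Hochberg method). It lost the call without EV replicate 1, 2 or 3 or miR-424 replicate 2. The same happened with the replicate number as a block in the fit, with or without the GC trend removed. SESN1, with an 8-base match, was at 20.7, 18.7 and 18.4 FPKM in EV and 18.03, 18.06 and 15.8 FPKM in miR-424 libraries. The groups did not overlap but were separated by less than the EV libraries spread (adjusted p = 0.264, limma with Benjamini-Hochberg). ABHD4, a lipid hydrolase gene, was at 6.51 ± 0.17 and 6.18 ± 0.40 FPKM (SD, n = 3) with overlap.

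**Figure D3:**
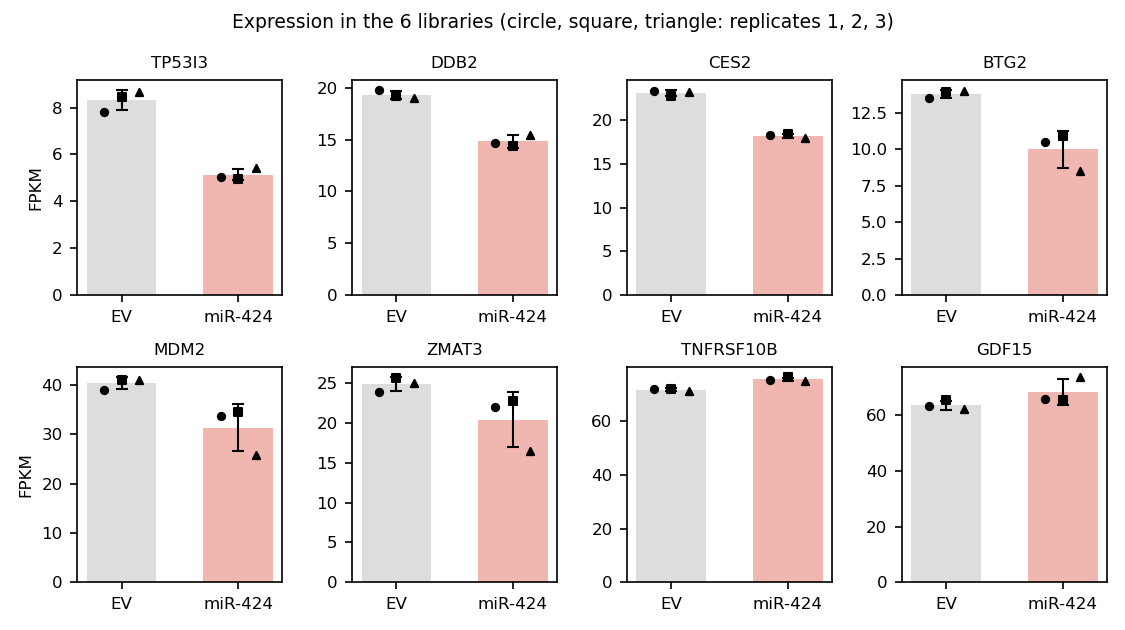
FPKM of 8 genes in EV and miR-424 cells; bars are means of 3 libraries, whiskers the SD, and circle, square and triangle are replicates 1, 2 and 3. TP53I3, DDB2 and CES2 are lower at a similar level in each miR-424 library, BTG2, MDM2 and ZMAT3 are lowest in replicate 3, and TNFRSF10B and GDF15 lie slightly above EV.

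Among 5 death receptor genes the decoy receptor gene TNFRSF10C fell and the others did not pass, where 6.32% of all tested loci fell. TNFRSF10C, whose product binds the ligand TRAIL without a death domain, read 6.71, 6.73 and 6.65 FPKM in EV and 5.21, 5.30 and 5.11 FPKM in miR-424 libraries (log2 change -0.31 ± 0.04, SE; adjusted p = 0.00830 by limma with the Benjamini-Hochberg method). TNFRSF10B, the gene of the TRAIL receptor DR5, was at 71.9, 72.0 and 71.0 FPKM and then 75.3, 76.1 and 74.7 FPKM, so all miR-424 libraries were above all EV libraries by a small margin (Benjamini-Hochberg with limma, adjusted p = 0.236, and 0.0163 without miR-424 replicate 3). Without that replicate 14.9% of all tested loci rose. TNFRSF10A, the gene of DR4, overlapped at 7.75 ± 0.27 and 7.29 ± 0.53 FPKM (SD, n = 3). These receptor genes are neighbours with related sequences, and no source used here says how reads shared between them were assigned, so their values are uncertain. FAS was at 20.9 ± 0.57 and 20.1 ± 2.46 FPKM with overlap. EDA2R, the receptor of an ectodysplasin isoform, read 7.79, 7.91 and 8.42 FPKM and then 7.55, 7.45 and 5.91 FPKM, without overlap (adjusted p = 0.266, limma with Benjamini-Hochberg).

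Of 8 genes with roles in apoptosis and survival, 4 fell and 0 rose, where 6.32% and 1.24% of all tested loci did. The other 4 had negative changes too, where 68.3% of all tested loci had one, but that of EI24 was positive with median-of-ratios scaling and those of EI24 and AEN were positive under quantile normalization. PHLDA3 (chromosome 1, 201434607 to 201438299), whose protein competes with AKT for membrane lipids, read 32.4, 30.8 and 30.3 FPKM in EV and 24.0, 22.7 and 24.5 FPKM in miR-424 libraries (log2 change -0.38 ± 0.05, SE; adjusted p = 0.00765 by limma with the Benjamini-Hochberg method). TP53I11, a p53-induced gene of less defined function, was low and went from 3.31, 3.72 and 3.96 FPKM to 2.25, 2.23 and 2.26 FPKM (adjusted p = 0.00655, limma with Benjamini-Hochberg). The miR-424 libraries were nearly identical there, while the EV libraries spread by more.

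PERP encodes a membrane protein of desmosomes that p53 and p63 induce. It read 42.7, 41.3 and 41.7 FPKM in EV and 36.4, 35.8 and 32.5 FPKM in miR-424 libraries (adjusted p = 0.0308, limma with Benjamini-Hochberg). TRIAP1, an inhibitor of apoptosis that p53 induces, read 39.8, 38.4 and 38.9 FPKM and then 33.2, 35.05 and 31.8 FPKM (adjusted p = 0.0362, limma with Benjamini-Hochberg). Both falls were smaller than those of PHLDA3 and TP53I11. Both were lost without EV replicate 1, 2 or 3 or miR-424 replicate 1, and with the replicate number as a block in the fit. The call of PERP was also lost without miR-424 replicate 2.

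ZMAT3, an RNA-binding protein gene induced by p53 and a carrier of an 8-base match, was at 23.9, 25.6 and 24.9 FPKM in EV and 21.9, 22.7 and 16.4 FPKM in miR-424 libraries. It was lower in all 3 and lowest in replicate 3 (Benjamini-Hochberg with limma, adjusted p = 0.197, and 0.0150 without that replicate, where 22.2% of all tested loci fell). SPATA18, a gene of mitochondrial quality control, was at 6.36 ± 0.16 and 5.56 ± 0.49 FPKM (SD, n = 3), without overlap. AEN, a nuclease gene with a promoter match shown above, was at 17.9 ± 0.37 and 17.2 ± 0.66 FPKM, and EI24, an endoplasmic reticulum protein gene and the most abundant of the 36, at 95.4 ± 1.62 and 94.4 ± 4.01 FPKM (SD, n = 3). Both overlapped between the groups.

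The secreted and antiviral genes did not pass. At an unadjusted limma p under 0.05, 2 of the 3 (TSKU and TRIM22) were lower, where 19.3% of all tested loci were. GDF15, a stress-induced cytokine of the TGF-beta family, read 63.3, 65.3 and 62.2 FPKM in EV and 65.7, 65.3 and 73.6 FPKM in miR-424 libraries. Its replicate 3 was the highest, and the groups were separated by a margin far smaller than their spread (Benjamini-Hochberg with limma, adjusted p = 0.346, and 0.0383 with the GC trend removed). TRIM22, an antiviral ubiquitin ligase gene, was at 14.4, 14.3 and 14.3 FPKM in EV and 12.4, 12.6 and 9.70 FPKM in miR-424 libraries (Benjamini-Hochberg with limma, adjusted p = 0.118, and 0.00215 without replicate 3). Without miR-424 replicate 3, 22.2% of all tested loci fell. TSKU, which encodes a small leucine-rich proteoglycan, was at 15.5 ± 0.41 and 14.4 ± 0.35 FPKM (SD, n = 3), without overlap.

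Further genes of the pathway were read from lists that share no gene with the 36. Of 55 tested further p53 targets (of 62 listed) 9 fell and 2 rose, where 6.32% and 1.24% of all tested loci did, and their median log2 change was -0.13, against -0.05. DDIT4, which encodes an inhibitor of mTORC1, fell from 297 ± 1.11 to 243 ± 3.17 FPKM (SD, n = 3). The rises were the cytokine gene LIF (3.11 ± 0.19 to 4.38 ± 0.13 FPKM) and TNFRSF10D (24.2 ± 0.28 to 28.5 ± 0.15 FPKM), the other TRAIL decoy receptor gene, opposite in direction to TNFRSF10C. For these 3 genes the limma Benjamini-Hochberg adjusted p lay between 0.00550 and 0.0135. The list also held CDKN1A, which encodes the cell cycle inhibitor p21, and BBC3, which encodes the death effector PUMA, both named after their values were seen. CDKN1A fell from 322 ± 0.62 to 282 ± 4.98 FPKM and BBC3 from 4.60 ± 0.19 to 3.77 ± 0.17 FPKM (SD, n = 3; adjusted p = 0.0194 and 0.0411, limma with Benjamini-Hochberg). BAX, PMAIP1 and APAF1 of the same list, also named after their values were seen, overlapped between the groups and did not pass. Their ratios of mean FPKM were 0.925, 1.02 and 1.03 (adjusted p = 0.279, 0.957 and 0.942, limma with Benjamini-Hochberg).

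**Figure D4:**
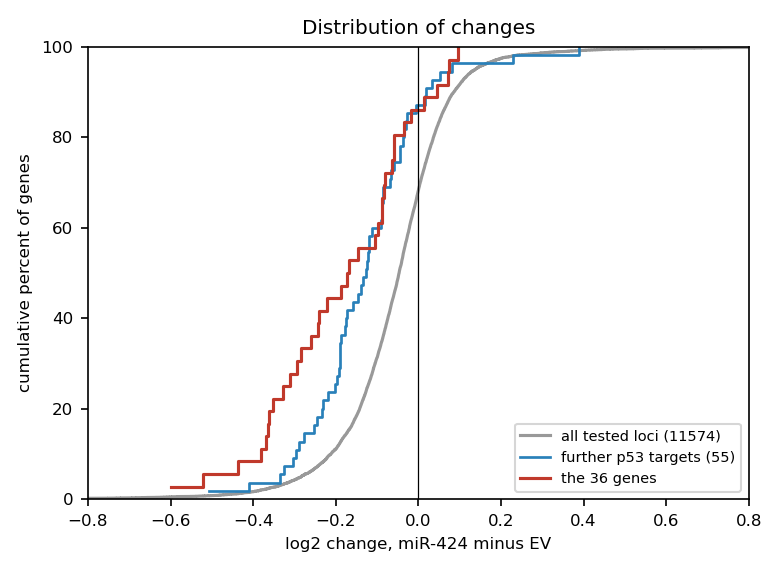
Cumulative percent of genes against the log2 change (miR-424 minus EV) for the 36 genes (red), 55 further p53 targets (blue) and 11574 tested loci (grey); the axis covers -0.8 to 0.8. The red curve lies left of the grey over most of its length, with medians of -0.17 and -0.05, and the blue median is -0.13.

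Of 15 tested further regulators of p53 (of 16 listed), limma called 0 in either direction, with 1 at an unadjusted p under 0.05, and their median log2 change was -0.01. Of all tested loci 6.32% fell and 1.24% rose, and 19.3% and 4.29% did so at the unadjusted threshold. With only 15 genes, 0 calls does not show that these regulators were unchanged. The most abundant were TRIM28, a corepressor gene, at 151 ± 1.63 and 146 ± 10.3 FPKM and USP10, a deubiquitinase gene, at 38.5 ± 0.31 and 38.5 ± 3.15 FPKM (SD, n = 3). Of 13 cell cycle genes that p53 is known to repress through p21 and the DREAM complex, 3 fell and 0 rose, with a median log2 change of -0.11, where 6.32% of all tested loci fell and their median was -0.05. The falls were FOXM1, a mitotic transcription factor gene (45.9 ± 0.79 to 39.3 ± 1.01 FPKM), BIRC5, the gene of survivin (80.3 ± 0.72 to 66.0 ± 4.81 FPKM), and KIF23, a cytokinesis motor gene (28.1 ± 0.03 to 24.8 ± 0.67 FPKM; SD, n = 3).

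The 12 genes with a seed match and the 24 without are described by their changes. Of the 12, 4 fell (BTG2, SESN2, PERP and PHLDA3), 9 were lower without overlap and the median log2 change was -0.21. Of the 2507 tested loci with a match, 251 fell and 867 were lower without overlap. Of the 24 without a match 7 fell, 13 were lower without overlap and the median was -0.14. Of the 8149 tested loci without a match, 447 fell and 2026 were lower without overlap. The 7 falls among the 24 included TP53I3, TP53I11, FDXR and DDB2, with log2 changes of -0.60, -0.52, -0.37 and -0.36. Among all tested loci with a 3' UTR the medians were -0.06 with a match and -0.04 without (8149 loci). Against the EV mean, the 12 genes had medians of -0.115, -0.108 and -0.348 in miR-424 replicates 1, 2 and 3. For the 24 genes these were -0.0875, -0.138 and -0.288, so in replicate 2 the order was reversed. The 3 genes with an 8-base match (PPM1D, SESN1 and ZMAT3) all had groups that did not overlap, with log2 changes of -0.24, -0.15 and -0.29, and none of the 3 passed the adjusted test. Of the 482 tested loci with such a match, 195 were lower without overlap. PPM1D, SESN1 and ZMAT3 were each lowest in replicate 3 and had a transcript GC content of 45.1%, 43.4% and 39.5%. With the GC trend removed their log2 changes were -0.25, -0.16 and -0.30. The remaining matches were in MDM4, XPC and EDA2R, each with a negative change, and in TP53INP1 and TNFRSF10B, each with a positive one.

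The miR-424 libraries did not give the 36 genes the same profile. The median change against the EV mean was -0.09 and -0.12 in replicates 1 and 2 and -0.29 in replicate 3, where all tested loci had medians of -0.02, -0.02 and -0.11. The difference of replicate 3 from the mean of replicates 1 and 2 followed the GC content of the transcript. Across the 36 genes Spearman's rho was 0.79 and Pearson's r 0.81, and across 11407 tested loci rho was 0.62. These points share the same 3 libraries and are not independent replicates. The 13 genes under 45% GC, such as RRM2B, POLK, ZMAT3 and MDM2, had a median difference of -0.30, the 11 genes from 45% to 55% one of -0.10 and the 12 genes at 55% or more one of 0.05. For all tested loci in those ranges the medians were -0.23, -0.07 and 0.04.

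**Figure D5:**
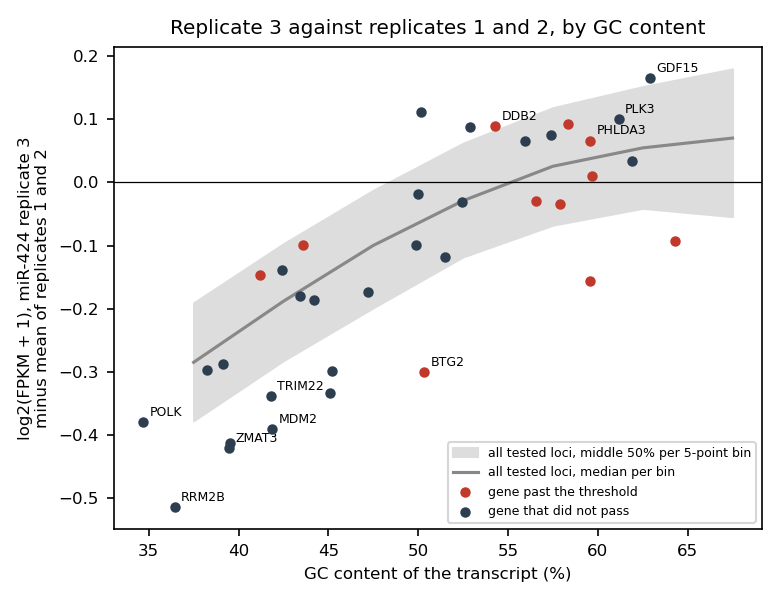
Difference of miR-424 replicate 3 from the mean of replicates 1 and 2 (log2(FPKM + 1)) against transcript GC content in percent, for the 36 genes (red, past the threshold; dark, not) and for all tested loci (line, median per bin of 5 points; band, middle 50%). The genes follow the slope of all loci, and RRM2B, POLK and ZMAT3 lie at the low end.

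The 11 falls had a median GC content of 57.9% and the other 25 genes 45.2%, with 48.5% for all tested loci, and 7 of the 12 genes at 55% or more fell. In replicates 1 and 2 those 12 genes had a median change against EV of -0.30, where tested loci of the same GC range had -0.09. The 13 genes under 45% had -0.11 in the same replicates, where tested loci had 0.05. With the GC trend removed from each library 15 of the 36 genes fell and 1, GDF15, rose, against 8.23% and 2.38% of all tested loci, and the 11 falls were among the 15. MDM2, CCNG1, ZMAT3 and TRIM22 were the 4 gained (adjusted p = 0.0279, 0.00861, 0.0473 and 0.0286, limma with Benjamini-Hochberg). With the trend removed and without miR-424 replicate 3, a setting chosen after the data were seen, 18 fell and 3 rose, against 18.2% and 11.8%.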

How the data were processed

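The authors deposited 1 table of FPKM values with 1 column per library. The submitters' processing notes name TopHat 1.4.1, Cufflinks 1.3.0 and Cuffdiff, and hg19 and GRCh37 as builds, with no role or order. No source used here gives the FPKM denominator or any scaling. Table starts count from 0 and were printed from 1. Columns were matched by title. Among loci low in EV replicate 1 and another library, only 4.1% to 17.1% had a ratio near the most common one. Depth could not be read from these ratios and is unknown, and no interval is given.

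Values were taken as log2(FPKM + 1), 11574 loci whose mean reached 1 FPKM were tested, and groups were compared with limma 3.58.1 (R 4.3.3; trended prior variance, two-sided, Benjamini-Hochberg over all tested loci, threshold 0.05). The fit was also run on simulated data with noise drawn separately for each locus and library. That simulation held no GC-dependent shift shared across loci, so it cannot show how such a shift affects the calls. An exact permutation test of 3 against 3 libraries cannot pass this threshold and was not used. GC content came from GENCODE 29 transcripts for 98.6% of tested loci. All 36 genes were named. From each further list the text names at most 4 called genes, by smallest adjusted p, or else the 2 most abundant. CDKN1A, BBC3, BAX, PMAIP1 and APAF1 were named outside this rule, after their values were seen. Genes, lists and tests were chosen with earlier results of these data known. Some genes that the rule selects are left out here.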

Additional observations from a re-analysis of the deposited data

How the results depend on the processing

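The 36 genes gave 11 falls under quantile normalization, median-of-ratios scaling, a pseudocount of 0.1 and no variance trend, the same 11 genes each time, and 10 without a low-value filter or at a minimum of 5 FPKM. With the GC trend removed they gave 15 falls and 1 rise. For all tested loci, rises and falls were 308 and 495 with median-of-ratios scaling, 319 and 447 under quantile normalization, 276 rises with the GC trend removed and 468 falls at a minimum of 5 FPKM. Correlations of deviations from the group mean did not settle whether the replicate numbers pair the libraries. They were 0.0509, 0.152 and 0.127 for libraries of the same number and -0.194 to 0.0613 for the others. EV replicate 1 correlated best with miR-424 replicate 2 (0.0613), and EV replicates 2 and 3 with their own number. With the replicate block the 36 genes gave 7 falls, and all loci 79 rises and 270 falls. BTG2, SESN2, PERP and TRIAP1 lost the call there (adjusted p = 0.0636, 0.0535, 0.0681 and 0.0954, limma with Benjamini-Hochberg). With the replicate block and the GC trend removed, 11 genes and 513 of all loci fell. SESN2 was then lost (0.0685) and CCNG1 gained (0.0318), and MDM2, ZMAT3 and TRIM22, which passed with the GC trend removed alone, did not pass (adjusted p = 0.0525, 0.0668 and 0.0504, limma with Benjamini-Hochberg). Leaving out 1 library gave 1 to 17 falls and 0 to 2 rises for the genes and 77 to 2574 falls and 31 to 1728 rises for all loci. Chosen after the data were seen, leaving out miR-424 replicate 3 gave 17 falls and 3 rises with median-of-ratios scaling (2203 and 2211 for all loci) and 18 and 3 with the GC trend removed (2101 and 1360). Their cause was not tested.

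Signs changed for 6 genes (TP53INP1, RRM2B, POLK, FAS, AEN and EI24), none of which passed in the setting reported. With median-of-ratios scaling the log2 changes of EI24 and POLK were 0.0398 and 0.0108, and under quantile normalization those of EI24, POLK and AEN were 0.0157, 0.0235 and 0.0014. TP53INP1 was at -0.0021 with the GC trend removed, with or without the replicate block. Leaving out 1 library gave -0.0572 to 0.1512 for TP53INP1, -0.1292 to 0.0905 for POLK, -0.1317 to 0.0356 for FAS and -0.0441 to 0.0162 for EI24. Without miR-424 replicate 3 and with median-of-ratios scaling, RRM2B was at 0.019, POLK at 0.1072, FAS at 0.0548 and EI24 at 0.0361, and with the GC trend removed EI24 was at 0.0262. The number of fragments is not given, so counting error could not be separated from replicate spread.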
